A study of Mus musculus with 4 samples.

Results

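Primitive streak and mesoderm genes were examined in RNA-seq of mouse embryonic stem cells (mESCs) labelled WT or knockout (KO) for Spen, a repressor that binds *Xist* RNA and is needed to silence the X chromosome. The set is a fixed list of 10 genes, out of 37310 genes in the count table: the signalling ligands *Wnt3* and *Fgf8*, the T-box factors *T*, *Eomes* and *Tbx6*, the homeobox factors *Mixl1*, *Gsc*, *Evx1* and *Hoxb1*, and the basic helix-loop-helix factor *Mesp1*. The list names genes and sets no threshold on their values, but it was drawn up with earlier results of these data known. All 10 were in the table, and 9 received an adjusted p-value.

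Of these genes, *T*, *Evx1* and *Eomes* fell in the libraries labelled *Spen* KO, and none of the 10 rose at an adjusted p under 0.05. *T*, the Brachyury factor of the streak and notochord, was 13.4-fold lower. *Evx1*, a homeobox factor of the posterior streak, was 5.41-fold lower, and *Eomes*, a T-box factor of the anterior streak, was 1.98-fold lower. The other 6 tested genes did not pass an adjusted p of 0.05 in DESeq2, with *Wnt3* nearest to the threshold, and *Mesp1* was close to 0 counts in every library.

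The primitive streak is the furrow through which epiblast cells of the early embryo leave the surface layer to become mesoderm and definitive endoderm. WNT, NODAL, BMP and FGF signals open it. T-box and homeobox factors then divide it along its length, with *Evx1* marking posterior and *Gsc* and *Eomes* more anterior fates. mESCs kept in serum with LIF (leukaemia inhibitory factor, a cytokine that sustains self-renewal) have not formed a streak, but a fraction of the cells in such cultures is known to express some of these genes at a low level.

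There were 4 libraries in 2 groups. WT is the HATX mESC line, of mixed genomic background, which carries a transgene for *Xist* that doxycycline can switch on, and which the study describes as haploid. The other group is *Spen* KO clone 2, a knockout made in such cells. Both groups grew in serum and LIF on gelatin, the labels name no treatment for either, and each is represented by 2 libraries. The KO group is 1 clone, so any other difference between that clone and the WT line is part of every comparison. Nothing in the labels says that the 2 libraries of a group came from separate cultures, so p-values measure the spread between these libraries only.

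The depth was 36667685 and 43835004 counts for WT and 54715889 and 61908422 counts for the KO group. *Spen* RNA itself was higher in the libraries labelled KO (normalized counts of 3716 and 3047 in WT against 7797 and 6242), so these gene-level counts, which do not resolve exons or protein, do not check the label. RNA of a gene whose protein is lost need not be lower. The group is called KO-labelled below. Every direction rests on that label. The 8 pluripotency markers examined were high in all libraries, with summed levels of 130635 to 137585 normalized counts per kb of exon in WT and 152943 to 153565 in the KO-labelled libraries, so the defining markers of the labelled cell type were present. Their log2 fold changes were positive for 6 and negative for 2, with a median of 0.12. At a DESeq2 adjusted p under 0.05, 3 were higher (*Tcfcp2l1* at 0.52, *Dppa5a* at 0.28 and *Zfp42* at 0.23) and 0 were lower, and *Zfp42* did not pass without KO-labelled replicate 1 or 2 or WT replicate 1 or 2 (0.118 to 0.167). With all 4 libraries, 37.5% of these 8 were higher and 0% lower at an adjusted p under 0.05, against 16.4% and 15.8% of all tested genes. In bulk RNA, fewer cells of one kind and less RNA per cell cannot be told apart.

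Levels were first ordered per exonic length, as TPM, since counts of different genes are not comparable. TPM are scaled to the same total in every library, and TPM per normalized count was 1.21 times as high in the KO-labelled libraries as in WT, so they serve to order genes within a group only. In WT, *T* was highest at 5.92 ± 0.48 TPM (SD, n = 2), above 64.4% of protein-coding genes, and *Eomes* followed at 5.32 ± 0.135 TPM. *Evx1* and *Gsc* were both at 1.22 TPM, *Tbx6* at 1.01 TPM and *Wnt3* at 0.753 TPM. *Fgf8* at 0.528 TPM and *Mixl1* at 0.493 TPM came next. *Hoxb1* at 0.103 TPM and *Mesp1* at 0.0355 TPM were lowest. The ranges of the WT libraries overlapped or met for the neighbours *Evx1* and *Gsc*, *Gsc* and *Tbx6*, *Wnt3* and *Fgf8*, and *Fgf8* and *Mixl1*, so that these are not ordered by the data.

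**Figure D1:**
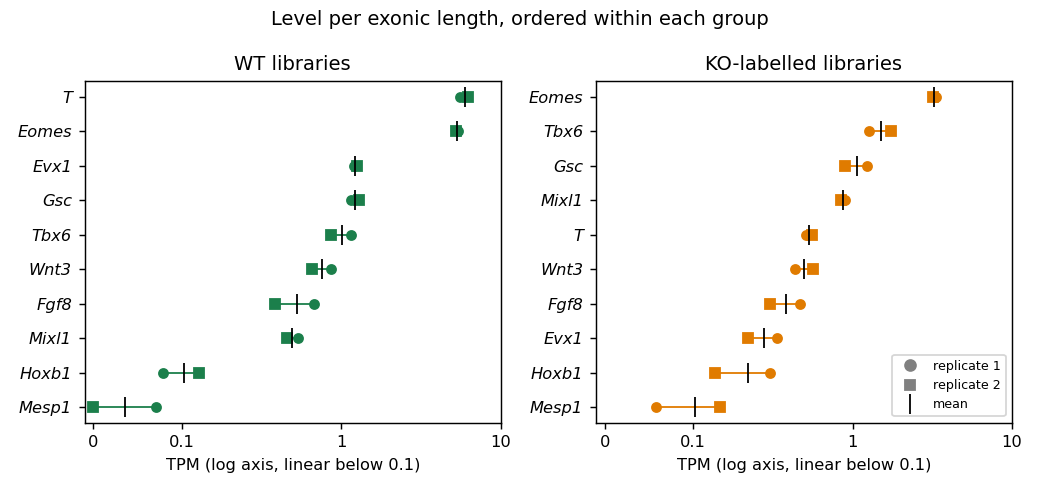
Level of each gene per exonic length, in TPM on a log axis that is linear below 0.1, ordered by the group mean in the WT libraries (left) and the KO-labelled libraries (right). Circles and squares are replicates 1 and 2, the line joins them and the tick is their mean. *T* is the highest of the 10 genes in WT at 5.92 TPM and the fifth in the KO-labelled libraries at 0.535 TPM, where *Eomes* is highest at 3.26 TPM.

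The order was different in the KO-labelled libraries. *Eomes* was highest there at 3.26 ± 0.0881 TPM, followed by *Tbx6* at 1.5 TPM, *Gsc* at 1.06 TPM and *Mixl1* at 0.876 TPM, of which the last pair overlapped. *T* was the fifth at 0.535 ± 0.0336 TPM, with a range that overlapped that of *Wnt3* (0.498 TPM). *Evx1*, level with *Gsc* in WT, was the eighth at 0.276 ± 0.0811 TPM, between *Fgf8* at 0.384 TPM and *Hoxb1* at 0.219 TPM and overlapping both. Within a library, *T* made up 33.4% and 37.9% of the summed TPM of the 10 genes in WT and 5.79% and 6.49% in the KO-labelled libraries. In TPM, the ratio of *Eomes* to *T* was 0.970 and 0.835 in WT and 6.5 and 5.73 in the KO-labelled libraries. These 2 quantities are ratios within a library and need no scaling between groups.

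Groups were compared by normalized counts, that is, counts divided by a DESeq2 size factor for each library. DESeq2 gave log2 fold changes (KO-labelled minus WT), their standard errors and p-values adjusted over all 17710 genes tested, whose median log2 fold change was 0.00. A gene was called where the fold was at least 2 and the adjusted p under 0.001, the study's own thresholds. Of the 9 tested genes, 2 were called lower (*T* and *Evx1*), where 3.15% of all tested genes were, and 0 were called higher, where 1.36% of all were. At an adjusted p under 0.05 alone, 3 were lower, against 15.8% of all genes, and 0 were higher, against 16.4%. At an unadjusted p under 0.05, 0 were higher in DESeq2 and edgeR likewise placed 0 higher at an adjusted p under 0.05. Log2 fold changes were negative for 6 genes and positive for 3, with a median of -0.74. An exact permutation test of 2 against 2 libraries cannot give a two-sided p below 0.333, so no single gene could pass one.

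**Figure D2:**
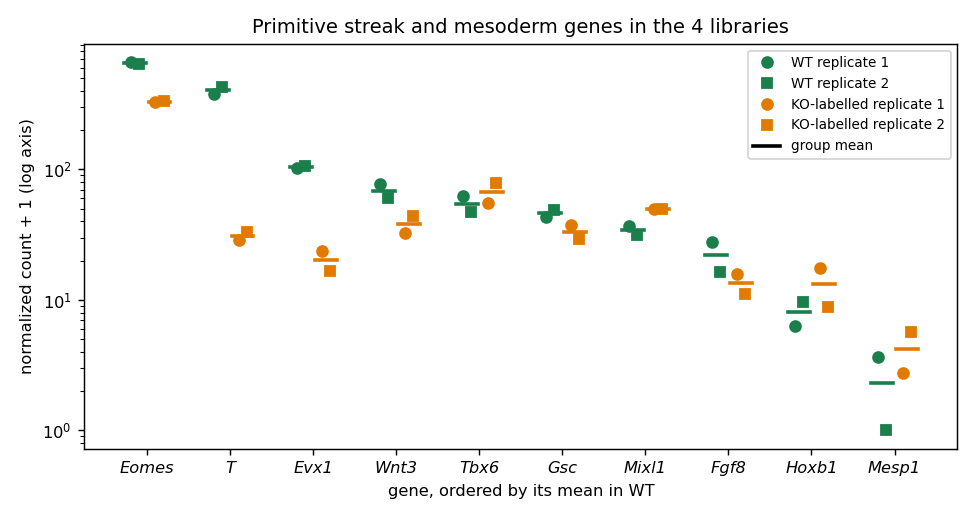
Normalized count plus 1 of each of the 10 genes in each library, on a log axis, with WT in green and the KO-labelled libraries in orange (circles, replicate 1; squares, replicate 2; lines, group means of 2 libraries). The KO-labelled points of *T* (27.86 and 32.08) and *Evx1* (22.64 and 15.65) lie far below those of WT (377.9 and 424.7; 100.8 and 105.6), while those of *Tbx6*, *Hoxb1* and *Mesp1* overlap WT.

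Among the T-box factors, *T* (ENSMUSG00000062327.3, mm9 chromosome 17, 8627288 to 8635361, plus strand) had normalized counts of 377.9 and 424.7 in WT, against 27.86 and 32.08 in the KO-labelled group. Both KO-labelled libraries lay far under both WT libraries, and the groups did not overlap. The means were 401.3 ± 33.1 and 29.97 ± 2.98 (SD, n = 2), and the log2 fold change was -3.74 ± 0.28 (SE, 95% interval -4.29 to -3.19), with a DESeq2 adjusted p of 7.73e-38. The edgeR estimate was -3.75 with an adjusted p of 2.5e-08. *T* was not at 0 in the KO-labelled libraries, where its raw counts were 32 and 41, against 285 and 390 in WT. Leaving out any 1 library kept the log2 fold change between -3.85 and -3.64. The median log2 fold change of chromosome 17 was -0.14, and with the chromosome medians removed that of *T* was -3.61.

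*Eomes*, which also has a role in trophoblast, is on chromosome 9 (ENSMUSG00000032446.8, 118387330 to 118395250, plus strand). It had normalized counts of 658.9 and 637.1 in WT and 325.7 and 330.2 in the KO-labelled libraries. There was no overlap of the groups, and the KO-labelled libraries were nearly equal to each other. The log2 fold change was -0.98 ± 0.16 (SE, 95% interval -1.30 to -0.66), with a DESeq2 adjusted p of 2.28e-08. *Eomes* therefore fell at the p threshold but stayed just inside the 2-fold limit. It passed that limit, at -1.12, when the chromosome medians were removed (0.13 on chromosome 9). The fall of *T* was larger than that of *Eomes* by more than their intervals allow, since -3.19 and -1.30 are their nearest bounds.

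*Tbx6*, which commits cells of the streak to paraxial mesoderm, did not follow *T* (ENSMUSG00000030699.10, chromosome 7, 133924997 to 133929074, plus strand). Its normalized counts were 60.99 and 45.74 in WT and 53.98 and 77.47 in the KO-labelled libraries. WT replicate 1 was above KO-labelled replicate 1, so the groups overlapped. On the log2 scale the difference was 0.31 ± 0.45 (SE, 95% interval -0.58 to 1.2), with a DESeq2 adjusted p of 0.677. A change like that of *T* is outside this interval, while a 2-fold rise is inside it.

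Of the homeobox factors, *Evx1* (ENSMUSG00000005503.8, chromosome 6, 52263492 to 52268372, plus strand) was the only one to be called. Its normalized counts were 100.8 and 105.6 in WT and 22.64 and 15.65 in the KO-labelled libraries. Both KO-labelled values were far below the WT values, and the WT libraries were within a few counts of each other. The means were 103.2 ± 3.44 and 19.14 ± 4.94 (SD, n = 2), and the log2 fold change was -2.44 ± 0.46 (SE, 95% interval -3.34 to -1.53), with adjusted p-values of 1.65e-06 in DESeq2 and 5.2e-05 in edgeR. Its call held without KO-labelled replicate 1 (DESeq2 adjusted p = 0.000506) but not without any other library. Without KO-labelled replicate 2, WT replicate 1 or WT replicate 2 the DESeq2 adjusted p was 0.00394, 0.0054 or 0.0104, all under 0.05 but above 0.001. A non-coding RNA gene on the other strand, *5730457N03Rik*, shares 73 bases or 2.54% of the *Evx1* exons, and the strand setting of the counting is not given in the sources used here.

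*Mixl1*, a paired-type homeobox gene of the streak (ENSMUSG00000026497.7, chromosome 1, 182623174 to 182627165, minus strand), had normalized counts of 35.80 and 30.49 in WT and 48.76 and 48.52 in the KO-labelled libraries. Both KO-labelled libraries were above both WT libraries, in the opposite direction to *T*. On the log2 scale the difference was 0.56 ± 0.53 (SE, 95% interval -0.47 to 1.59), and the adjusted p was 0.479 in DESeq2 and 0.197 in edgeR. A fall of *Mixl1* as large as that of *Eomes* is outside this interval, while a 2-fold rise is inside it.

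*Gsc*, which encodes goosecoid of the anterior streak and organizer (ENSMUSG00000021095.3, chromosome 12, 105709419 to 105711537, minus strand), had normalized counts of 42.43 and 47.92 in WT and 36.57 and 28.17 in the KO-labelled libraries. Those of the KO-labelled group were the lower pair, with no overlap. The estimated log2 fold change was -0.48 ± 0.54 (SE, 95% interval -1.54 to 0.57; DESeq2 adjusted p = 0.56). The median of all genes on chromosome 12 was -0.32, and with the chromosome medians removed that of *Gsc* was -0.16.

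*Hoxb1*, the first gene of the HoxB cluster to be expressed in the posterior streak (ENSMUSG00000018973.2, chromosome 11, 96227066 to 96229570, plus strand), had 4 and 8 raw counts in WT and 19 and 10 in the KO-labelled libraries. After normalization these were 5.303 and 8.712 against 16.54 and 7.825, and KO-labelled replicate 2 lay between the WT libraries. The log2 fold change of 0.79 ± 1.10 (SE, 95% interval -1.38 to 2.95; DESeq2 adjusted p = 0.657) allows a more than 2-fold change in either direction. edgeR's expression filter removed the gene.

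*Mesp1*, which marks nascent mesoderm and the progenitors of the heart (ENSMUSG00000030544.5, chromosome 7, 86937127 to 86938674, minus strand), had 2 and 0 raw counts in WT and 2 and 6 in the KO-labelled libraries. With a floor of 3 counts, only KO-labelled replicate 2 was above it, and DESeq2 gave no adjusted p. A difference was not detectable at this depth, and no fold is given. The neighbouring *Mesp2*, of presomitic mesoderm, had 76 and 145 counts in WT and 219 and 232 in the KO-labelled libraries, and their log2 difference was 0.52 ± 0.30 (SE; DESeq2 adjusted p = 0.185). It was named after its values were seen.

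Of the ligands, *Wnt3*, the WNT without which no streak forms (ENSMUSG00000000125.5, chromosome 11, 103635464 to 103679271, plus strand), had normalized counts of 76.90 and 58.81 in WT and 31.35 and 43.04 in the KO-labelled libraries. Both KO-labelled libraries were below both WT libraries. The log2 fold change was -0.86 ± 0.48 (SE, 95% interval -1.80 to 0.07), with a DESeq2 adjusted p of 0.166. edgeR estimated -0.87 with an adjusted p of 0.0394, so *Wnt3* passed 0.05 with one tool and not with the other. DESeq2 gave adjusted p-values from 0.0926 to 0.604 over its other settings.

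*Fgf8*, which streak cells need to migrate away (ENSMUSG00000025219.7, chromosome 19, 45811288 to 45817405, minus strand), had normalized counts of 26.52 and 15.25 in WT and 14.80 and 10.17 in the KO-labelled libraries. Between groups, the lower WT library and the higher KO-labelled library nearly met. The estimate was -0.74 ± 0.83 on the log2 scale (SE, 95% interval -2.37 to 0.89; DESeq2 adjusted p = 0.564). On chromosome 19 the median gene was 0.38 higher, and with the chromosome medians removed *Fgf8* stood at -1.12 with an adjusted p of 0.344.

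**Figure D3:**
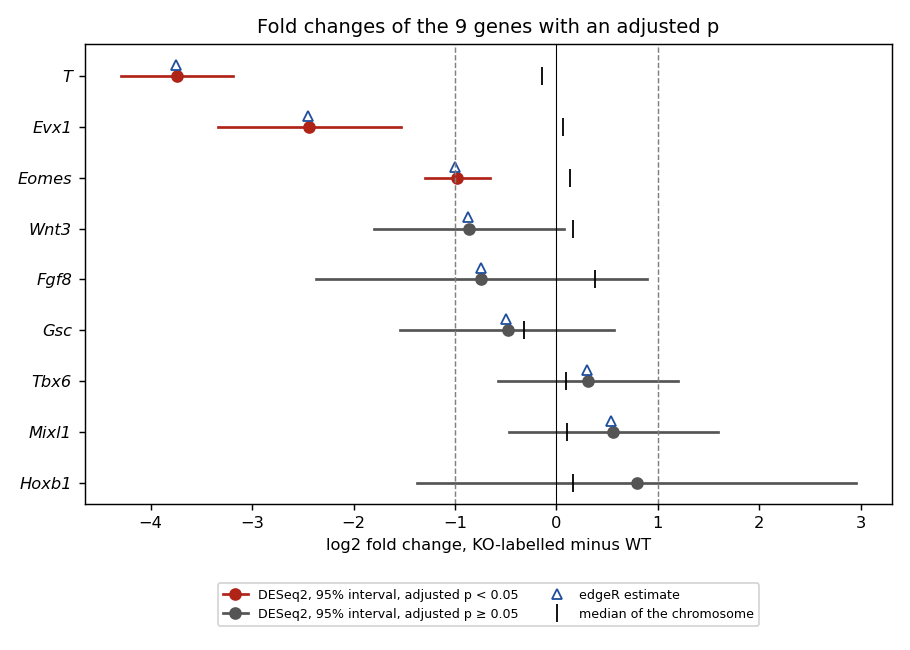
Log2 fold change, KO-labelled minus WT, of the 9 genes with an adjusted p. Points and lines are DESeq2 estimates with 95% intervals (red, adjusted p under 0.05; grey, not), triangles are edgeR estimates where that tool tested the gene, black ticks are the median of each gene's chromosome, and dashed lines mark 2-fold. Only the intervals of *T*, *Evx1* and *Eomes* lie wholly below 0, and those of *Wnt3* (to 0.07) and the 5 genes under it cross 0.

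Precision differed with the number of reads. Among all tested genes with a mean normalized count between 20 and 100 the median standard error was 0.53 and 13.1% passed an adjusted p of 0.05, against 0.19 and 35.6% for genes between 100 and 1000. *Wnt3*, *Tbx6*, *Gsc*, *Mixl1* and *Evx1* belong to the first of these classes and *T* and *Eomes* to the second. *Fgf8* and *Hoxb1* lie in the class from 5 to 20, with a median standard error of 1.01 and 3.91% passing.

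**Figure D4:**
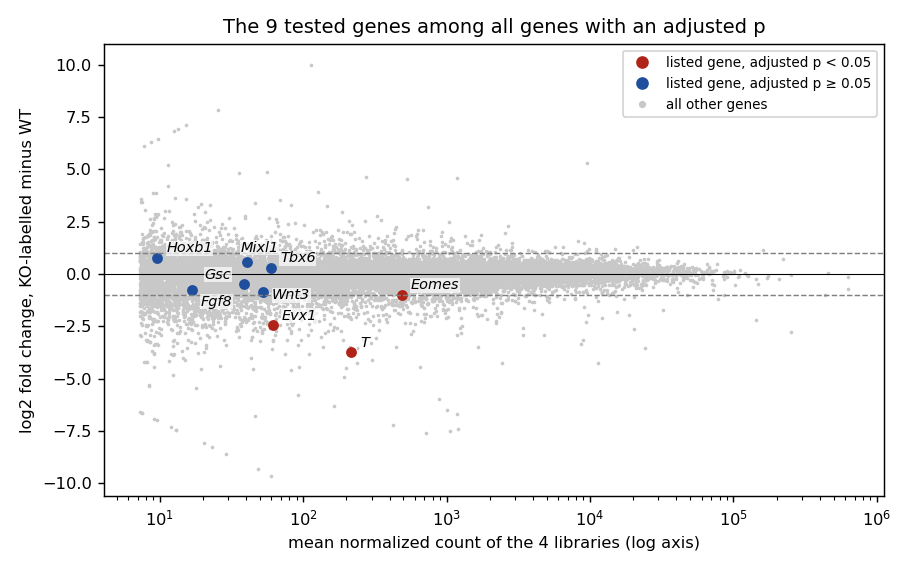
Log2 fold change, KO-labelled minus WT, against the mean normalized count of the 4 libraries on a log axis, for all 17710 genes with an adjusted p (grey) and the 9 listed genes (red, adjusted p under 0.05; blue, not). *T* at -3.74 and *Evx1* at -2.44 lie toward the lower side of genes of their level, *Eomes* at -0.98 lies on the dashed 2-fold line, and the others lie within the bulk.

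Low counts were more often even than odd. Of counts from 1 to 20, 64.0% to 66.5% were even, against 50.1% to 51.8% of counts above 100, and whether the mates of a pair were counted separately was not tested. With every count halved, which treats the mates of a pair as 1 fragment, *T*, *Evx1* and *Eomes* kept log2 fold changes of -3.72, -2.44 and -0.98, with DESeq2 adjusted p-values of 4.12e-24, 0.000116 and 4.06e-06. No read-length stretch of 9 of the 10 genes had a second place in the genome. For *Mesp1*, 1 of 46 stretches of 75 bases did.

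The sequence just before the transcription start is shown for the 3 genes that fell, so that the reader can see what their promoters do and do not share. Each is 250 bases from RefSeq on GRCm38.p6 (a later build than mm9), plus strand, 5′ to 3′, ending at the base before the start. Capitals mark CTTTGA or its reverse complement TCAAAG (the core read by TCF/LEF factors of the WNT pathway) and GGTGTG or CACACC (the core of the T-box site). The windows are chr17:8434173-8434422 for *T*, chr6:52313248-52313497 for *Evx1* and chr9:118477939-118478188 for *Eomes*.
T: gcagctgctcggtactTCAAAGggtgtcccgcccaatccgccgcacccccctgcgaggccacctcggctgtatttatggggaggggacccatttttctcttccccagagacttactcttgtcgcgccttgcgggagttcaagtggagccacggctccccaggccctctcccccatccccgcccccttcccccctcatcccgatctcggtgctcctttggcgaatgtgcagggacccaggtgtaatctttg
Evx1: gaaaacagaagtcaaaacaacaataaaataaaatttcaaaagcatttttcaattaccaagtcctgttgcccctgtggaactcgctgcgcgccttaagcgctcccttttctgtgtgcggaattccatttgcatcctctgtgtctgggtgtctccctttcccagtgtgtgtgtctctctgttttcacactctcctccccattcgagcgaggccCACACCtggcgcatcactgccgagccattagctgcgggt
Eomes: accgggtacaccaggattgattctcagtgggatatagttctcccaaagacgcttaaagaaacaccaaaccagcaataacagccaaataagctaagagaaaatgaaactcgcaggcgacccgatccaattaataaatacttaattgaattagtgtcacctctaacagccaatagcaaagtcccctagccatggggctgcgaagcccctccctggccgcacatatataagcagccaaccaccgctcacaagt

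The *T* window held 1 CTTTGA, on the minus strand 234 bases before the start, and no GGTGTG. The *Evx1* window held 1 GGTGTG, on the minus strand 39 bases before the start, and the *Eomes* window held neither. Windows were found for 8 of the 10 genes (*Mixl1* and *Fgf8* had none). Among these, CTTTGA was in 2 (*T* and *Mesp1*) and GGTGTG in 1, against 13.8% and 16.3% of all 32841 promoter windows of this length. The longer T-box site AGGTGTGA, which contains GGTGTG, was in 1.12% of all windows, AATNNACA (read by FOXH1, a partner of SMADs) in 10.9% and TAATCC (read by bicoid-class homeodomains such as that of goosecoid) in 6.25%, and 0 of the 8 windows held any of them. Both strands were searched. GC content was 62.8% for *T*, 49.6% for *Evx1* and 46.4% for *Eomes*. These matches are letters in a window, not sites of binding.

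The genes next to *T* and *Evx1* were not called. *Sft2d1*, 37.6 kb before *T*, had a log2 fold change of 0.00 ± 0.14 (SE), and its counts are uncertain because 19.5% of its read-length stretches have a second place in the genome and 14.4% of its exonic bases lie in *T2* on the same strand. *Pde10a*, 82.9 kb after *T*, had -0.75 ± 0.71. On the sides of *Evx1*, *Hoxa13* at 52.6 kb had -1.00 ± 0.94 and *Gm8129* at 28.4 kb had 0.33 ± 0.50, with copies of all of its sequence elsewhere. DESeq2 adjusted p-values of these 4 genes ranged from 0.477 to 0.997. Of 21 other Hox genes, 11 had an adjusted p, and 0 of them passed 0.05 in DESeq2, with 0 at an unadjusted p under 0.05. In edgeR *Hoxb4* (log2 fold change -1.80, adjusted p 0.0293) and *Hoxd1* (1.69, adjusted p 0.0494) passed it, in opposite directions.

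The profile most like that of *T* over the 4 libraries was sought among genes whose normalized counts averaged 50 or more, by Euclidean distance of centred log2 values. *Gna14*, a G protein subunit, was nearest (distance 0.206, log2 fold change -3.53), then *Meis1*, a homeobox partner of Hox proteins (0.244, -3.79), *Gm9* (0.254, -3.50), *Gm10664* (0.264, -3.46) and *Pls3*, an actin-bundling protein (0.301, -3.49). *Meis1* shares 12.1% and *Gm10664* 4.3% of its exonic bases with another gene. With 4 libraries in 2 groups, likeness to *T* is mostly likeness in the size of the fall.

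A wider list of 74 streak and mesoderm genes was read beside the 10. Of its 58 genes with an adjusted p, 43 had negative and 15 positive log2 fold changes, with a median of -0.39. At least 2-fold and an adjusted p under 0.001, 10 were lower (4 to 7 with 1 library left out, the fewest without WT replicate 1) and 1 was higher, or 17.2% and 1.72% against 3.15% and 1.36% of all tested genes. At an adjusted p under 0.05, 18 (31%) were lower and 4 (6.9%) higher, against 15.8% and 16.4% of all, and 36 did not pass. *Sp5*, a zinc finger target of WNT, fell from normalized counts of 343.4 and 399.7 to 17.41 and 7.825 (-4.90 ± 0.37, SE; DESeq2 adjusted p = 1.01e-38). *Mest*, an imprinted gene of the mesoderm, had -4.09 ± 0.81 (-5.27 to -3.44 with 1 library left out), with 563.5 and 581.5 in WT and 14.80 and 52.43 in the KO-labelled libraries. Of its exonic bases, 23% overlap *Copg2* on the other strand. The imprinted genes *H19* and *Peg3*, outside this list, were called lower too (-7.19 and -7.41), and imprinted genes were not counted here as a set. *Apln*, the ligand of the apelin receptor, fell by 3.19 and *Wnt5a*, a WNT of the posterior embryo, by 2.02 on the log2 scale. *Sp5* stayed called with any library left out. *Mest* was not called without WT replicate 1 or 2 (DESeq2 adjusted p of 0.014 and 0.0144), nor *Apln* without WT replicate 1 (0.00473), and *Wnt5a* lost its call whichever of the 4 libraries was left out, with adjusted p-values from 0.00107 to 0.0532 without KO-labelled replicate 1 or 2 or WT replicate 1 or 2. The 1 gene called higher was *Lefty2*, a secreted NODAL inhibitor (1.32 ± 0.08, SE), in which 44.2% of read-length stretches have a second place in the genome. Among the 36 genes that did not pass, log2 fold changes were 0.12 ± 0.33 for *Wnt3a* and -0.04 ± 0.16 for *Cdx1*. The WNT ligand *Wnt8a* was called lower, with normalized counts of 347.4 and 348.5 in WT and 76.62 and 115.8 in the KO-labelled libraries (-1.85 ± 0.26). *Wnt3a*, *Cdx1* and *Wnt8a* were named after their values were seen.

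Other T-box genes were split. Of 14, 9 had an adjusted p, and *Tbx20*, of the heart, was the 1 called gene (11.1%, against 3.15% of all tested genes called lower). It had normalized counts of 164.4 and 161.2 in WT and 43.54 and 42.26 in the KO-labelled libraries (-1.92 ± 0.34, SE; DESeq2 adjusted p = 2.9e-07). At an adjusted p under 0.05, 3 (33.3%) were lower and 2 (22.2%) higher, against 15.8% and 16.4% of all tested genes. *Tbx20* stayed called only without KO-labelled replicate 1, and without KO-labelled replicate 2, WT replicate 1 or WT replicate 2 its DESeq2 adjusted p was 0.00108, 0.00387 or 0.0041.

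Signals upstream of the streak genes were examined by role. Of 25 genes for WNT secretion, reception and transduction, 3 (12%) were called lower and 1 (4%) higher, against 3.15% and 1.36% of all tested genes, with a median of 0.10. At an adjusted p under 0.05, 5 (20%) were lower and 5 (20%) higher, against 15.8% and 16.4%, shares not far from those of all genes. The lower genes were the receptors *Fzd8* (-2.19 ± 0.39, SE) and *Fzd2* (-1.32 ± 0.21), and *Wls*, which carries WNT proteins to the cell surface (-1.09 ± 0.20), while the receptor *Fzd7* was higher (1.10 ± 0.11). *Fzd8* was not called without KO-labelled replicate 1 or WT replicate 2 (DESeq2 adjusted p of 0.00167 and 0.0278), *Fzd2* without WT replicate 2 (0.00146), and *Wls* without KO-labelled replicate 1, WT replicate 1 or WT replicate 2 (0.0049, 0.0051 and 0.00149). In *Fzd2*, 16.1% of read-length stretches have a second place in the genome, and in *Sp5* 6.33%. *Ctnnb1*, which encodes β-catenin and was highest per length, had 0.15 ± 0.07 with a DESeq2 adjusted p of 0.0818. Of 12 tested WNT targets and feedback genes, *Sp5* was the 1 called (8.33%, against 3.15% of all tested genes called lower). With 0.05 as the only threshold, 3 of the 12 (25%) were lower and 1 (8.33%) higher, against 15.8% and 16.4%. *Ccnd1*, cyclin D1, highest per length among them, fell by 0.53 on the log2 scale, and 21.3% of its exonic bases overlap *Oraov1* on the other strand.

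Of 4 FGF receptors, *Fgfr2* was called lower (25%, against 3.15% of all tested genes). It had normalized counts of 1046 and 924.5 in WT and 122.8 and 151.0 in the KO-labelled libraries (-2.84 ± 0.18, SE; DESeq2 adjusted p = 9.56e-57). No other receptor passed 0.05. All 4 values were negative, with a median of -0.25 against 0.00 over all tested genes. *Fgfr1*, the receptor highest per length, had -0.18 ± 0.09 and an adjusted p of 0.0903. Of 12 FGF feedback and target genes, *Dusp6*, a phosphatase of ERK, was called lower (-1.36 ± 0.09) and *Spry4*, an inhibitor of receptor signalling, higher (1.01 ± 0.07). Each is 8.33% of the 12, against 3.15% lower and 1.36% higher of all tested genes. *Spry4* lay at the 2-fold limit and was not called without KO-labelled replicate 2 or WT replicate 1, at 1.00 and 0.97. At an adjusted p under 0.05, 5 of them (41.7%) were lower and 4 (33.3%) higher, against 15.8% and 16.4% of all tested genes. *Etv5*, highest per length, had -0.45 ± 0.06, and 75% of its read-length stretches have a second place in the genome.

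Of the 25 genes for NODAL and BMP signalling, 23 had an adjusted p, with a median of -0.01. *Id2*, a BMP target, was called lower (-3.06 ± 0.22, SE) and *Lefty2* higher. Each is 4.35% of the 23, against 3.15% lower and 1.36% higher of all tested genes. The BMP ligand *Bmp4* was higher, just inside the 2-fold limit (0.97 ± 0.11; DESeq2 adjusted p = 3.46e-16), and *Id3* had 0.02. *Bmp4* and *Id3* were named after their values were seen. With 0.05 as the only threshold, 4 of the list (17.4%) were lower and 5 (21.7%) higher, near the 15.8% and 16.4% of all tested genes. *Tdgf1*, the NODAL co-receptor and the highest per length, had -0.01 ± 0.07. In *Tdgf1* 58.7% and in *Id2* 29.5% of read-length stretches have a second place in the genome. *Nodal* itself, named after its values were seen, had normalized counts of 4490 and 4505 in WT and 3833 and 4401 in the KO-labelled libraries (-0.13 ± 0.09; DESeq2 adjusted p = 0.3).

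**Figure D5:**
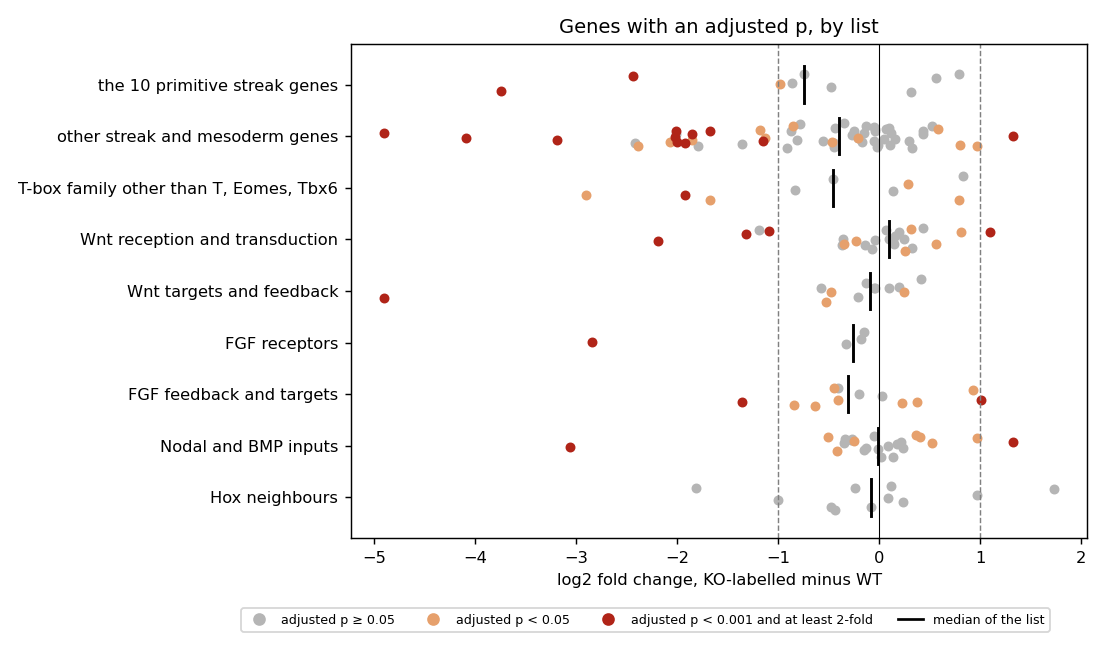
Log2 fold change, KO-labelled minus WT, of every gene with an adjusted p in the 10 primitive streak genes and in 8 other lists (grey, adjusted p of 0.05 or more; orange, under 0.05; red, under 0.001 and at least 2-fold), with the list median as a black line. Vertical position within a list is random, and some genes are in more than 1 list. The medians are -0.74 for the 10 genes and -0.39 for the wider streak list, and lie between -0.46 and 0.10 for the other 7 lists.

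Markers of other cells were read beside these genes. Their part in the changes was not tested. Of 6 primitive endoderm markers 4 had an adjusted p, all 4 with negative values, and 2 passed 0.05, with *Sox7* called (-1.45 ± 0.32, SE; DESeq2 adjusted p of 0.00235 to 0.0366 without KO-labelled replicate 1 or 2 or WT replicate 1 or 2), and their summed level was 127 to 135 normalized counts per kb of exon in WT and 54.9 to 66.0 in the KO-labelled libraries. *Gata4* (-1.13 ± 0.31, SE) was the other endoderm marker to pass 0.05 with all libraries, and had -1.27 to -0.97 with 1 library left out. Sums of the other lists are on the same scale, WT first. Of 4 neuroectoderm markers 1 is not in the annotation, *Pax6* was called lower and was the 1 of 3 tested to pass 0.05 (-2.33 ± 0.23, with 27.9% of its exonic bases overlapping *Elp4* on the other strand), and the sum was 150 to 172 against 116 to 119. Of 4 trophoblast markers, which include *Eomes*, *Cdx2* was lower (-1.85 ± 0.55; DESeq2 adjusted p = 0.00357, but 0.0515 to 0.166 without KO-labelled replicate 1 or 2 or WT replicate 1 or 2) and *Elf5* had 4 counts in each WT library and 0 in each KO-labelled one. The sum of the 4 was 1250 to 1285 against 1047 to 1106, most of it from *Tcfap2c* (-0.13 ± 0.08; DESeq2 adjusted p = 0.25). Of 7 fibroblast markers 5 had an adjusted p, 3 positive and 2 negative, and *Thy1* was the 1 that passed 0.05 (1.59 ± 0.23). The sum was 82.9 to 94.8 against 224 to 260, most of it from *Thy1*, while *Col1a2* (-1.19 ± 1.08) and *Col3a1* (-0.25 ± 1.04) had negative estimates and *Lum* had at most 2 counts in any library. Of 4 formative or primed markers *Dnmt3b* was the 1 of 3 tested to pass 0.05, and it was lower (-0.79 ± 0.07). The other 2 tested had -0.19 and 0.11, and *Pou3f1* had no count. The sum of the list was 3941 to 4105 against 2352 to 2466. Of 4 blood and endothelium markers only *Pecam1*, which mESCs express too, had an adjusted p, and it was higher (0.42 ± 0.08), with a sum of 989 to 1025 against 1296 to 1396.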

How the data were processed

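RNA-seq libraries of WT and *Spen* KO clone 2 mESCs (2 each) were grouped by their labels. Per the methods and labels, libraries were stranded and depleted of ribosomal RNA, paired reads were mapped to mm9 with STAR, and the authors counted reads per GENCODE vM1 gene with featureCounts. The deposited values are raw counts with no normalization. Tool versions, the strand setting and the handling of multiply mapped reads are not given in the sources used here.

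DESeq2 1.42.0 (R 4.3.3) was used for the tests (Wald, group alone, Benjamini-Hochberg adjustment, independent filtering at a mean normalized count of 7.254), with edgeR 4.0.16 as an alternative. TPM were computed from counts and exonic lengths of GENCODE vM1, whose coordinates (1-based, mm9) are given. Read-length stretches of exons were aligned to mm9 with minimap2 2.31-r1302, and a second place needed at least 70 of 75 matching bases. Scripts were tested on simulated data.

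The genes and lists were chosen with earlier results of these data known. Named outside the 10 genes were *Spen*, up to 4 called genes per list and direction by size of change, the highest gene per length of each signalling list, the nearest genes to called members and the 5 genes most like *T*. Other genes were named after their values were seen. Among these were *Mesp2*, *Wnt3a*, *Wnt8a*, *Cdx1*, *H19*, *Peg3*, *Nodal*, *Bmp4*, *Id3*, *Hoxb4*, *Hoxd1* and the cell type markers that were not called. The floor of 3 counts covers only counting error, because PCR copies were not marked by molecular identifiers. Settings tried were other size factors, filters and thresholds, the replicate block, chromosome medians removed, each library left out and, chosen after seeing the data, halved counts. The same-numbered libraries did not deviate together (correlation -0.01773 over 13310 genes).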

Additional observations from a re-analysis of the deposited data

How the results depend on the processing

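Of 107 comparisons of single genes with an alternative, 95 had an adjusted p, and 94 of these kept their direction and side of 0.05, the other being *Wnt3* in edgeR. The remaining 12 (of *Hoxb1*, *Fgf8*, *Gsc* and *Mixl1*) had no adjusted p and kept their direction. Of the 10 genes, 1 to 2 were called lower with 1 library left out, against 2 with all. *T* alone was called without KO-labelled replicate 2 or WT replicate 1, and without WT replicate 2 *Eomes* was called (-1.00) and *Evx1* was not. A group reduced to 1 library is assumed to vary like the other. The median of the genes, -0.74, became -1.03 with the chromosome medians removed and -1.00 to -0.66 with a library left out, when only 5 to 7 of them had an adjusted p. Over the same 9 genes it was -0.67 and -0.49 without KO-labelled replicate 1 and 2, and -0.56 and -1.00 without WT replicate 1 and 2. In the wider streak list, 10 were called lower with all libraries and 4 to 7 without 1 of them (6 without KO-labelled replicate 2, 4 without WT replicate 1, 5 without WT replicate 2). There 1 was called higher, against 1 to 2 with a library left out, 2 with upper-quartile size factors and 3 with no fold minimum.

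With the replicate block 2 of the genes were called lower, their median was -0.79 over the 8 with an adjusted p and -0.71 over the same 9, and *T* and *Evx1* stood at -3.74 and -2.45. The labels tie the replicate numbers to no shared day or culture. For each of the 6 tested genes that did not pass, the 95% interval reaches a 2-fold change in at least 1 direction, and for *Hoxb1* in both.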
